A study of Homo sapiens with 36 samples.

Results

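The class IIa histone deacetylases HDAC4, HDAC5, HDAC7 and HDAC9 were followed as transcripts in HCT-116 cells, a human colorectal carcinoma line, exposed to oxaliplatin (OXPT). The 4 genes were taken by name from the 62757 gene rows of each count table, after the Ensembl identifiers had been paired with symbols in the GENCODE 44 annotation. All 4 had counts, and 3 of them (HDAC4, HDAC5 and HDAC7) passed the minimum set for the test, which was a mean of 64 counts or more in 1 or more groups. HDAC9 did not pass, and its tests come from a fit without that minimum.

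The series holds 36 polyA RNA libraries, of which 24 fell into 8 groups of 3. In 6 groups the cells were FBXW7-/- (KO), an HCT-116 line lacking the ubiquitin ligase receptor FBXW7 that was bought from a supplier and whose clonality was not given in the sources used here. These cells carried a control esiRNA (esiCT), the esiRNA against HDAC4 (esiHDAC4) or the control esiRNA with the degrader #11, each without (UNT) and with OXPT, and 2 further groups were WT HCT-116 cells without and with OXPT. The esiRNA or #11 was present for 48 h and OXPT at 50 µM for the last 24 h. The dose of #11 stands as 1 µM in the treatment entry and as 10 µM in the description, and the esiRNA of the 6 WT libraries is unsettled, since their titles name a control and their treatment entries name esiHDAC4. The other 12 libraries, all WT, have titles and treatment entries that give opposite OXPT states, so they entered no group, and each is given below under its title.

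Class IIa deacetylases have little deacetylase activity of their own on acetylated lysine and act as scaffolds: the N-terminal part binds transcription factors of the MEF2 family, and the C-terminal domain binds HDAC3 through nuclear corepressors such as NCOR1. Kinases such as the CaMK, PKD and SIK families phosphorylate them, 14-3-3 proteins then hold them in the cytoplasm, and phosphatases bring them back to the nucleus. In colon cancer cells HDAC4 is known for the repression of the cell cycle inhibitor CDKN1A. An esiRNA is a pool of short RNAs cut from a long double strand, which directs the cleavage of its target transcript. Degrader #11 is a PROTAC, a molecule with a class IIa ligand (a trifluoromethyloxadiazole) joined to a ligand of the ubiquitin ligase receptor VHL, and it acts on the protein, which was not measured here.

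The members lie on different chromosomes of GRCh38 and differ in size. HDAC4 (ENSG00000068024.18) spans 353.5 kb at chr2:239048168-239401654 on the minus strand, HDAC5 (ENSG00000108840.16) 47.0 kb at chr17:44076746-44123702 on the minus strand, HDAC7 (ENSG00000061273.18) 50.4 kb at chr12:47782722-47833132 on the minus strand, and HDAC9 (ENSG00000048052.25) 915.5 kb at chr7:18086949-19002416 on the plus strand. The next sequences show how alike the members are at their most conserved, since a read that matched several genes would be lost to all. The stretch is the 60 coding bases of HDAC4 with the fewest differences summed over the best ungapped match in each other member. The sequences are from the 4 MANE Select transcripts (GENCODE 44), 5′ to 3′, within the deacetylase domain. Capitals mark the 41 positions at which all 4 have the same base.
HDAC4, exons 20 and 21, chr2:239082185-239084177: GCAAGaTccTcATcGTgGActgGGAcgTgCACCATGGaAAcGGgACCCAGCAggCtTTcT
HDAC5, exons 20 and 21, chr17:44080846-44082607: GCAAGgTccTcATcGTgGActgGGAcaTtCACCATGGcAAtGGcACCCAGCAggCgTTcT
HDAC7, exons 19 and 20, chr12:47788128-47789283: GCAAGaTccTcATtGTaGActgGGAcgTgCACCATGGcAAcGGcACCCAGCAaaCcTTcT
HDAC9, exons 19 and 20, chr7:18829526-18835503: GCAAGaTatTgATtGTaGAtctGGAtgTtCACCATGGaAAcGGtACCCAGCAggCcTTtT
Even here HDAC5 and HDAC7 each differed from HDAC4 at 7 positions and HDAC9 at 13. Over the whole transcripts, runs of 25 bases in common numbered 6 between HDAC4 and HDAC5, 6 between HDAC5 and HDAC7 and 0 in every other pair, and no pair shared a run of 50 bases.

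The primers with which the study followed the same transcripts by PCR are given because they place its assay on the members. All lie in coding exons, match without a mismatch, and differ from the other members at 2 or more bases, and a pair for HDAC9 was not found among them.
HDAC4 forward, exon 5, chr2:239176416-239176438: caagaacaaggagaagggcaaag
HDAC4 reverse, exon 7, chr2:239156738-239156761: ggagaactctggtcaagggaactg
HDAC5 forward, exon 3, chr17:44110737-44110756: acttctctgcacagcatccc
HDAC5 reverse, exon 4, chr17:44093717-44093735: agtgtggggtccacagagc
HDAC7 forward, exon 13, chr12:47793436-47793454: ctcactgtcagccccagag
HDAC7 reverse, exon 14, chr12:47791970-47791988: ctggtgcttcagcatgacc
The amplicons are 183 bases for HDAC4, 146 for HDAC5 and 121 for HDAC7, whereas the counts below cover all exons of each gene.

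The 24 libraries held 10725966 to 20527222 counts assigned to genes (median 14510758), and 7.74 to 22.31% of reads were unmapped, the most in KO esiCT OXPT replicate 3. Libraries of the same group differed by more than sampling noise (chi-square per degree of freedom 8.31 to 223.9 over 24 pairs), so none was counted as a repeat. Nothing in the labels says that replicates were separate cultures, so every p-value measures only the spread between these libraries. Of 8 epithelial markers, 6 (EPCAM, CDH1, KRT8, KRT18, KRT19 and CDX2) were counted in every library, while the intestinal markers VIL1 and CDX1 had at most 7 and 2 counts and CDX1 was at 0 in 22 of 24. Of the markers of other cell types, PTPRC and CD3E (leukocytes) were at 0 in 20 and 19 of 24 libraries, and COL1A1 (fibroblasts, 25 to 77.0 CPM) and DES (muscle, 2.15 to 28.3 CPM) were counted in all 24. Counts of FBXW7 did not check the knockout, since they read the whole gene and not the edit: the level was 16.8 ± 1.33 CPM (counts scaled to the library total; SD, n = 3) in KO esiCT and 20.9 ± 3.57 in WT (log2 fold change -0.32, SE 0.31, edgeR quasi-likelihood test, Benjamini-Hochberg adjusted p = 1.00).

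HDAC5 and HDAC7 made up most of the class IIa transcripts, HDAC4 was the third and HDAC9 was near the limit of counting. Over the 24 libraries HDAC5 had 320 to 1114 counts, HDAC7 237 to 949, HDAC4 51 to 485 and HDAC9 2 to 67. Levels between genes were compared only per length, as CPM per kb of merged exons. On that scale the median level was 6.60 for HDAC5 (4.12 to 10.2), 3.97 for HDAC7 (2.82 to 6.77), 0.998 for HDAC4 (0.233 to 1.88) and 0.0502 for HDAC9 (0.0115 to 0.255). The ranges of HDAC5 and HDAC7 overlapped across libraries, but within libraries HDAC5 was above HDAC7 in 23 of 24, and HDAC4 was the third and HDAC9 the last in 24 of 24. The exception was WT replicate 3 without OXPT, in which HDAC7 was above HDAC5. The 12 libraries with conflicting labels had the order HDAC5, HDAC7, HDAC4, HDAC9 in 12 of 12.

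Among the classical deacetylases, the class I enzymes HDAC1 (median 84.1 CPM per kb), HDAC3 (18.2) and HDAC2 (9.88) stood above every class IIa member. HDAC11 (5.73) and HDAC6 (4.05) were in the range of HDAC5 and HDAC7, and HDAC8 (0.324) and HDAC10 (0.193) lay between HDAC4 and HDAC9. Reads of HDAC5 and HDAC7 were the more exposed to neighbours: 24.0% of the exon bases of HDAC5 are shared with the antisense gene G6PC3 and 11.2% of those of HDAC7 with other genes, against 2.53% for HDAC4 and 0% for HDAC9. The columns without strand gave 68.7% of the summed strand columns for HDAC5, 80.1% for HDAC7, 95.2% for HDAC4 and 99.8% for HDAC9, and reads from G6PC3 and HDAC5 in the shared bases cannot be told apart.

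**Figure D1:**
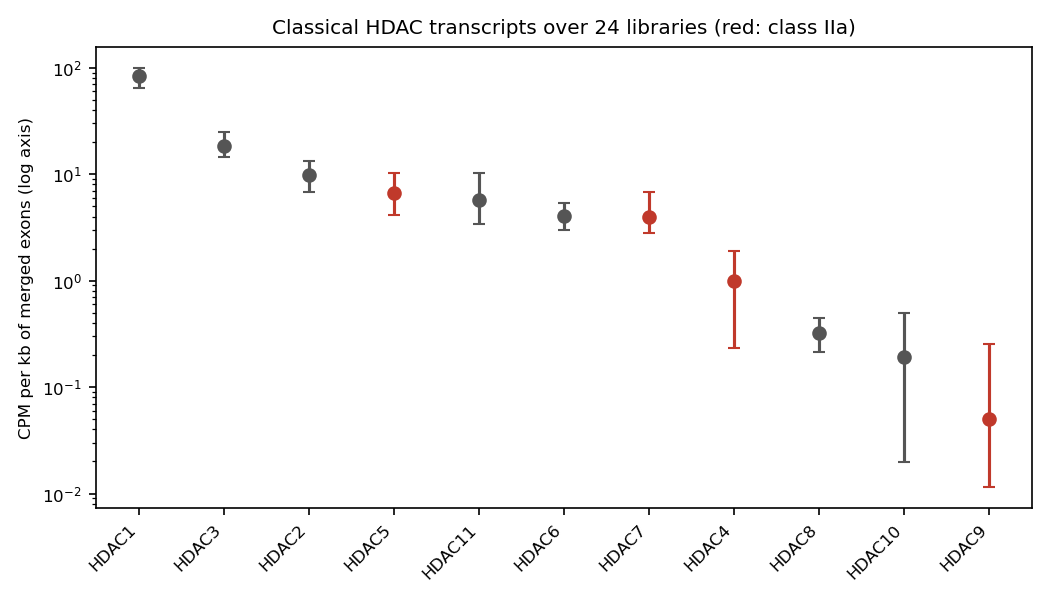
Transcript level of each classical HDAC on a log axis in CPM per kb of merged exons (point, median over the 24 libraries in groups; bar, lowest to highest library; red, class IIa). HDAC5 and HDAC7 sit at 6.60 and 3.97, HDAC4 at 0.998 and HDAC9 at 0.0502, and the bars of HDAC4 and HDAC9 are long next to those of HDAC1 and HDAC3.

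HDAC4, the target of esiHDAC4, was the member whose transcript varied most among those that passed the count minimum, with 8.08-fold between the highest and lowest library against 2.49-fold for HDAC5 and 2.40-fold for HDAC7. Normalised levels of HDAC4 in replicates 1, 2 and 3 of KO esiCT were 18.3, 13.9 and 24.7 CPM, and with OXPT they were 6.23, 5.67 and 7.44. With esiHDAC4 the levels were 8.87, 8.73 and 14.8, and with OXPT as well 4.10, 3.31 and 4.16. The treated libraries lay below all untreated ones in both backgrounds. With #11, the levels were 21.5, 21.8 and 26.7 CPM, and 18.4, 16.8 and 14.4 with OXPT. In WT they were 18.6, 25.4 and 21.5 CPM, and 8.42, 8.38 and 9.94 with OXPT. HDAC4 was thus lower with OXPT without overlap in all 4 settings, but the treated #11 libraries remained near the untreated KO esiCT libraries. Here and below, separation of 3 libraries from 3 is a description only. The share of all genes that separated in the same way is not given.

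Ranked by mean, HDAC4 was highest in KO #11 (23.3 ± 2.94 CPM; SD, n = 3), then WT (21.8 ± 3.42), KO esiCT (19.0 ± 5.41), KO #11 OXPT (16.5 ± 2.00), KO esiHDAC4 (10.8 ± 3.45), WT OXPT (8.91 ± 0.890), KO esiCT OXPT (6.45 ± 0.908) and KO esiHDAC4 OXPT (3.85 ± 0.477). Each group overlapped its neighbour in this order down to WT OXPT. KO esiCT OXPT lay wholly below WT OXPT, and KO esiHDAC4 OXPT wholly below KO esiCT OXPT.

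**Figure D2:**
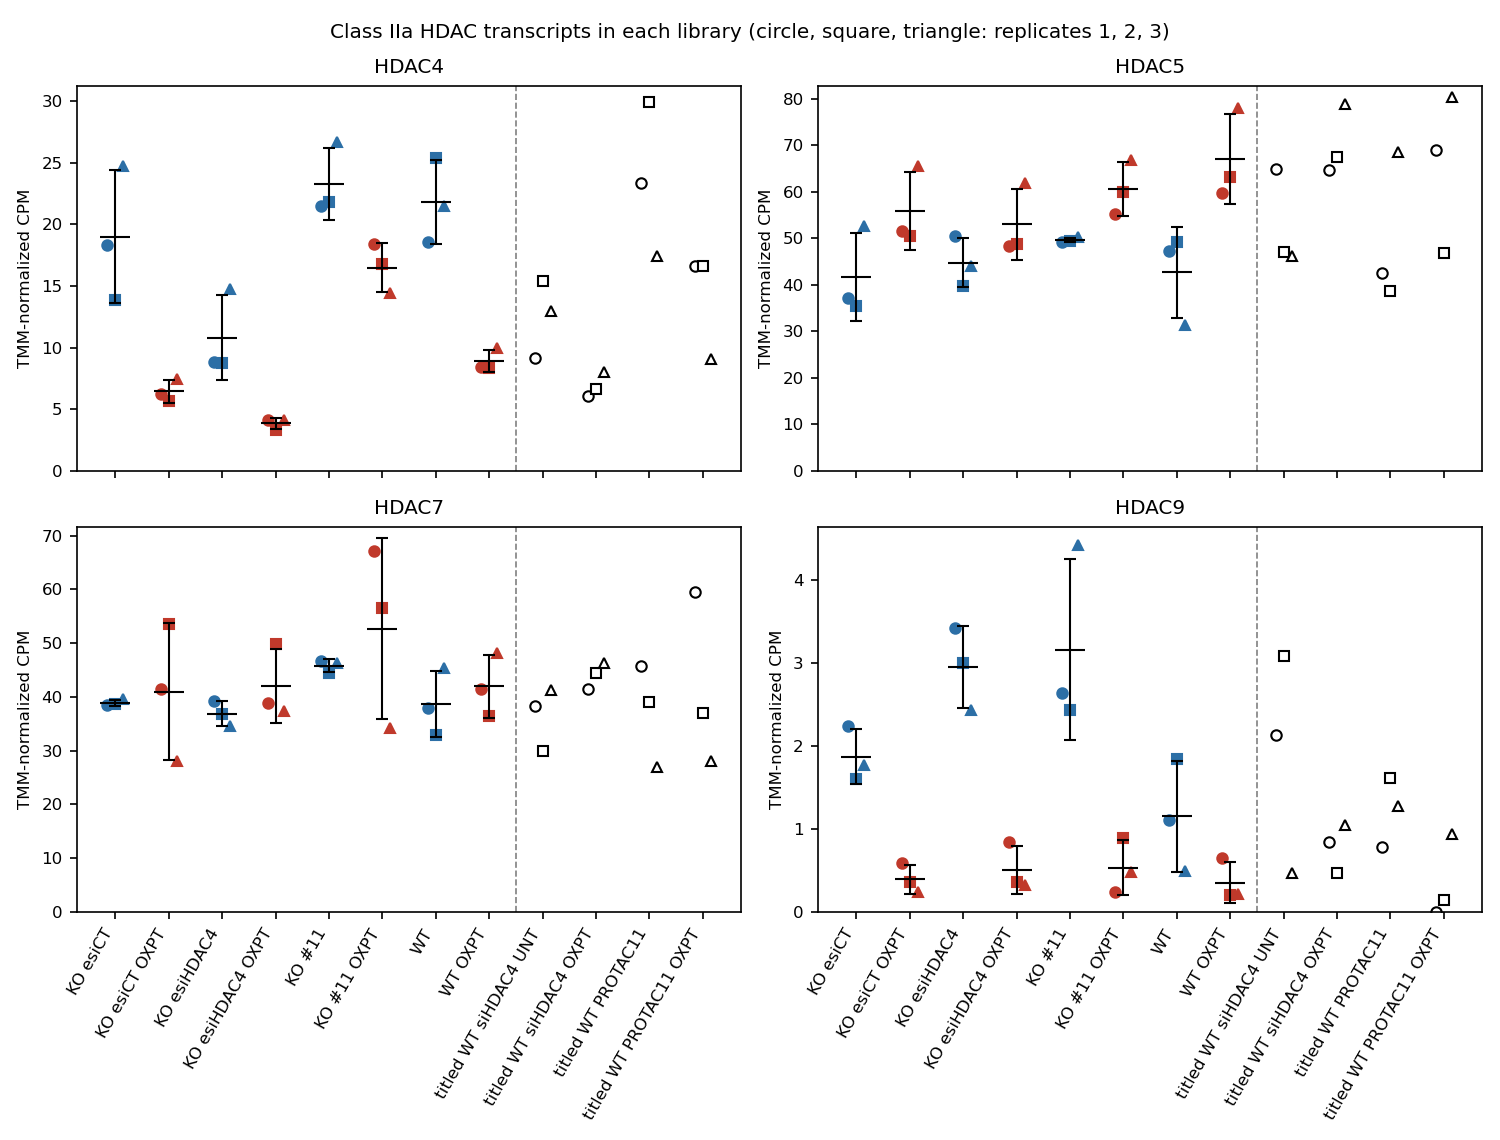
TMM-normalised CPM (vertical axis, linear, from 0) of each class IIa HDAC in every library (circle, square and triangle, replicates 1, 2 and 3; blue, untreated; red, OXPT; bars, mean ± SD of 3), with the 12 libraries of conflicting labels as open symbols under their titles to the right of the dashed line, without means. HDAC4 and HDAC9 drop with OXPT in the KO, from 19.0 to 6.45 and from 1.87 to 0.393 CPM in KO esiCT, while HDAC7 shows no such step.

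The first question is what OXPT did to the class IIa transcripts. A gene was called at an adjusted p under 0.05 and a change of over 1.5-fold. HDAC4 fell in KO esiCT by 1.56 on the log2 scale (SE 0.25, 2.95-fold lower, adjusted p = 2.87e-04), in KO esiHDAC4 by 1.48 (SE 0.25, 2.79-fold lower, adjusted p = 5.14e-04) and in WT by 1.29 (SE 0.24, 2.45-fold lower, adjusted p = 0.00146). In KO #11 its log2 fold change was -0.50 (SE 0.24, 95% interval -0.96 to -0.03, adjusted p = 0.214), which did not pass. Of all 12356 genes tested, OXPT called 11.3% in KO esiCT, 12% in KO esiHDAC4, 9.51% in KO #11 and 10.7% in WT, beside 1 of 3 tested members, 1 of 3, 0 of 3 and 2 of 3. The WT call for HDAC4 was lost when the 2 WT groups were fitted alone (log2 fold change -1.37, adjusted p = 0.0874). In RNA from whole cultures, less HDAC4 RNA per cell and fewer cells that express it cannot be told apart.

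HDAC9 was the other member that fell. It had 33, 26 and 27 counts in KO esiCT and 12, 5 and 2 with OXPT, which is 2.24, 1.60 and 1.77 CPM against 0.584, 0.359 and 0.236. KO esiHDAC4 gave 67, 54 and 33 counts without and 14, 6 and 4 with OXPT, and KO #11 gave 36, 52 and 62 without and 3, 12 and 6 with OXPT. In all 3 KO settings every treated library was below every untreated one on the CPM scale. In WT the counts were 14, 35 and 5 without OXPT and 12, 3 and 3 with it, and here the groups overlapped (0.490 to 1.84 against 0.199 to 0.644 CPM). Counts this small carry a large counting error.

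In the fit without a count minimum, HDAC9 fell by 2.16 on the log2 scale in KO esiCT (SE 0.53, adjusted p = 0.00221), by 2.52 in KO esiHDAC4 (SE 0.50, adjusted p = 5.13e-05), by 2.52 in KO #11 (SE 0.51, adjusted p = 9.96e-05) and by 1.74 in WT (SE 0.54, adjusted p = 0.0346). That fit held 42865 genes and called 4.35%, 4.44%, 3.40% and 4.56% of them. A minimum mean count of 10 was also used, chosen after the counts of HDAC9 had been seen. HDAC9 reached it in the untreated groups and in no OXPT group. Its entry into this fit was thus tied to the direction of its fall, and the fit is no independent check of the calls. With this minimum, the KO values were again called (adjusted p = 0.0125, 0.00278 and 0.00339) and the WT call was lost (log2 fold change -1.72, adjusted p = 0.0509). With this minimum, the KO esiCT value was at an adjusted p of 0.0508 without KO esiCT replicate 1, and the WT value was -1.15 (adjusted p = 0.308) without WT replicate 2, which held 35 counts. In KO #11, where HDAC4 did not pass, HDAC9 was 5.75-fold lower.

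HDAC4 and HDAC9 are the long members, and long genes as a class were lower with OXPT. Of 782 tested genes spanning over 200 kb, 25.3% were called lower in KO esiCT, 28.6% in KO esiHDAC4, 21.1% in KO #11 and 26.9% in WT, against 5.1%, 5.5%, 3.6% and 5.6% of all genes tested. Their median log2 fold changes were -0.55, -0.63, -0.64 and -0.70, beside 0.01, 0.02, 0.00 and -0.06 over all genes. The part of gene length in the fall of HDAC4 and HDAC9 was not tested.

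HDAC5, a close relative of HDAC4, was higher by mean with OXPT. Its levels were 37.1, 35.5 and 52.6 CPM in KO esiCT and 51.5, 50.6 and 65.6 with OXPT, 50.4, 39.8 and 44 in KO esiHDAC4 and 48.3, 48.8 and 61.8 with OXPT. In KO #11 they were 49.3, 49.4 and 50.2, and 55.2, 60 and 66.8 with OXPT. In WT they were 47.3, 49.3 and 31.4, and 59.8, 63.1 and 78.0 with OXPT. All 4 treated means were above all 4 untreated means, but the libraries separated without overlap only in KO #11 and WT. HDAC5 rose in WT by 0.65 on the log2 scale (SE 0.20, 1.57-fold, adjusted p = 0.0394). In KO esiCT the log2 fold change was 0.42 (adjusted p = 0.183), in KO esiHDAC4 0.24 (adjusted p = 0.480) and in KO #11 0.29 (adjusted p = 0.410), none of which passed. The WT call was near the threshold and was lost without a count minimum (0.59, adjusted p = 0.344) and in the fit of the WT groups alone (0.57, adjusted p = 0.391). It was also lost without any of 10 libraries (WT replicates 1 and 3, WT OXPT replicates 2 and 3, KO esiCT OXPT replicate 1, KO esiHDAC4 replicates 1 and 2, and replicate 2 of KO esiHDAC4 OXPT, KO #11 and KO #11 OXPT), with adjusted p of 0.0515 to 0.161. The WT response did not pass a test of difference from that of KO esiCT (-0.23, 95% interval -0.78 to 0.32, adjusted p = 1.00).

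HDAC7 was not called in any comparison. Its levels were 38.5, 38.6 and 39.6 CPM in KO esiCT and 41.5, 53.6 and 28.0 with OXPT, so that the treated libraries fell on both sides of the untreated ones. The same spread appeared in KO #11, with 46.7, 44.4 and 46.4 without and 67.2, 56.6 and 34.3 with OXPT. KO esiHDAC4 gave 39.2, 36.9 and 34.5 without and 38.8, 49.9 and 37.3 with OXPT, and WT 37.9, 33.0 and 45.3 without and 41.5, 36.4 and 48.1 with OXPT. The SD of HDAC7 in KO esiCT was 0.611 without OXPT and 12.8 with it, and in KO #11 1.23 and 16.8. Log2 fold changes with OXPT were 0.08 in KO esiCT (95% interval -0.38 to 0.53), 0.19 in KO esiHDAC4 (-0.27 to 0.64), 0.20 in KO #11 (-0.25 to 0.65) and 0.12 in WT (-0.34 to 0.57).

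**Figure D3:**
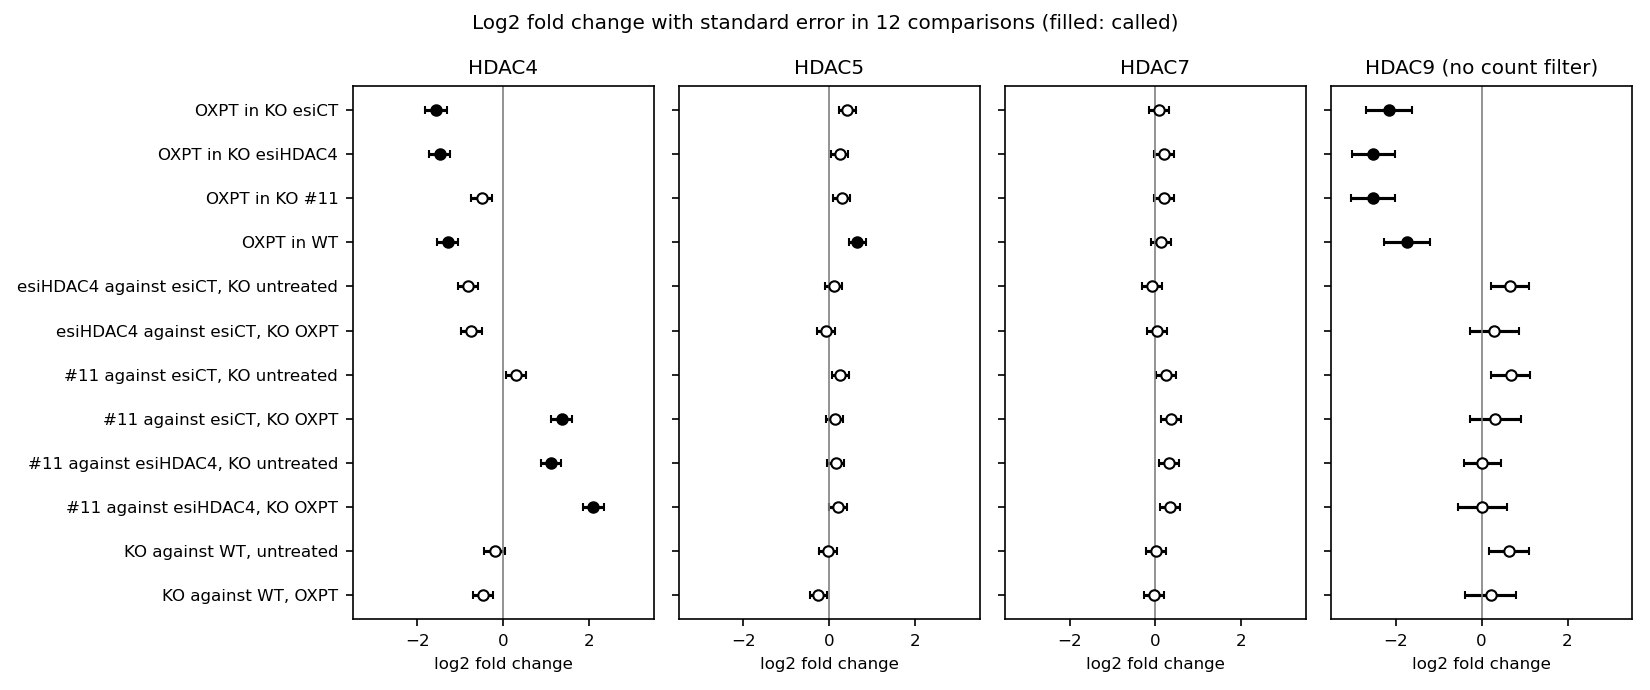
Log2 fold change (horizontal axis) with its standard error for each member in 12 comparisons from edgeR (filled, called at adjusted p under 0.05 and over 1.5-fold; open, not called), HDAC9 from the fit without a count minimum. HDAC4 is filled below 0 for OXPT in KO esiCT, KO esiHDAC4 and WT and above 0 for 3 comparisons of #11, HDAC9 is filled below 0 in all 4 OXPT comparisons, and HDAC7 is nowhere filled.

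Within the class, OXPT went with a lower share of HDAC4 and a higher mean share of HDAC5. Of the summed class IIa level per length, HDAC4 took 12.2 ± 1.79% in KO esiCT and 3.82 ± 0.590% with OXPT (SD, n = 3). In KO esiHDAC4 its share was 7.27 ± 2.39% and 2.38 ± 0.369%, in KO #11 12.7 ± 1.22% and 8.03 ± 0.403%, and in WT 13.9 ± 2.07% and 4.61 ± 0.153%. No treated library overlapped its untreated group. HDAC5 took 50.2 ± 3.51% in KO esiCT and 61.5 ± 9.52% with OXPT, 55.7 ± 2.20% and 60.4 ± 5.92% in KO esiHDAC4, 50.3 ± 1.09% and 55.5 ± 9.63% in KO #11, and 50.0 ± 8.44% and 64.3 ± 2.06% in WT. These shares of HDAC5 overlapped between treated and untreated libraries except in WT. HDAC7 had mean shares of 31.0 to 36.9% and HDAC9 of 0.155 to 1.62% over the 8 groups. These shares depend on the length used: on exon bases shared with no other gene, HDAC4 took 10.4 ± 1.5% in KO esiCT and 3.16 ± 0.446% with OXPT.

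**Figure D4:**
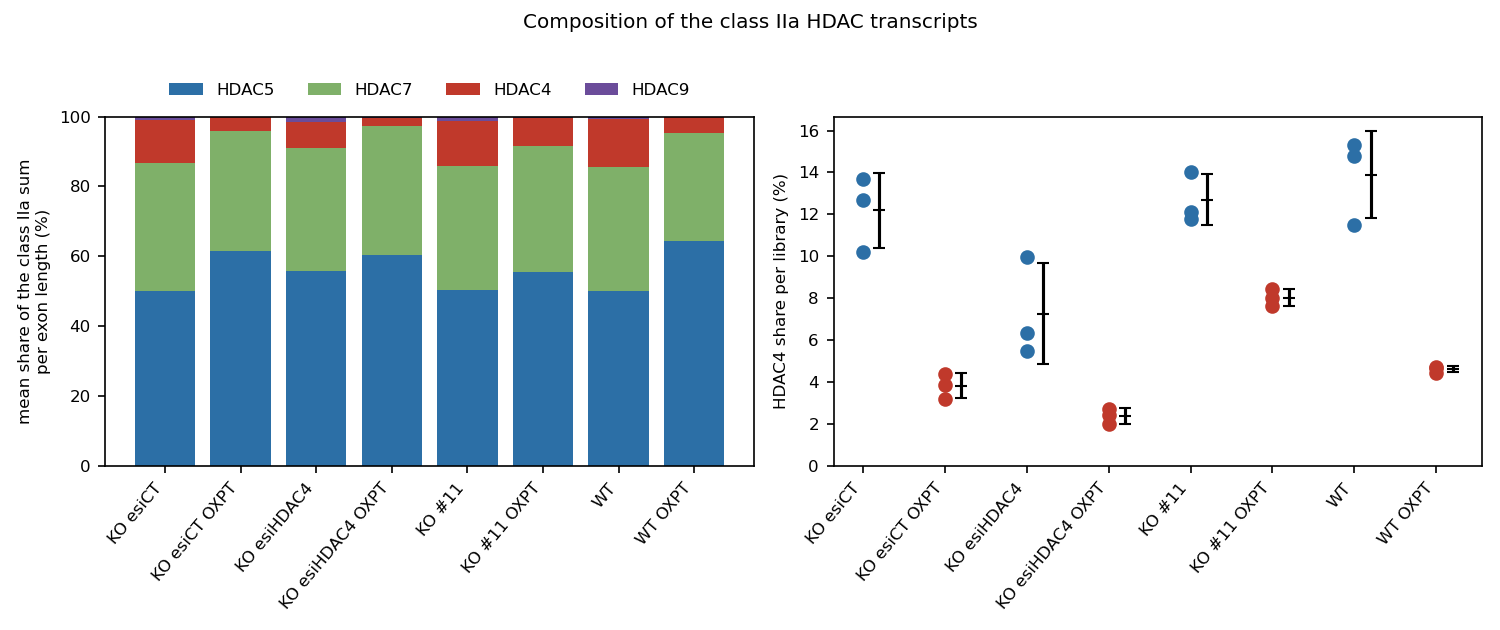
Left, mean share of each member in the summed class IIa level per exon length in percent (stacked bars, 8 groups of 3); right, the HDAC4 share in each library in percent (points; blue, untreated; red, OXPT) with mean ± SD. The HDAC4 share is 12.2% in KO esiCT and 3.82% with OXPT, and 12.7% and 8.03% with #11.

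The second question is whether esiHDAC4 lowered its target. HDAC4 was lower by mean with esiHDAC4 than with esiCT, at 10.8 against 19.0 CPM without OXPT and 3.85 against 6.45 with it, but neither difference passed over all genes. Without OXPT the log2 fold change was -0.82 (SE 0.24, 95% interval -1.29 to -0.34, 1.76-fold lower, unadjusted p = 0.00285, adjusted p = 0.561), and HDAC4 was lower with esiHDAC4 in each of the 3 same-numbered pairs, although esiHDAC4 replicate 3 at 14.8 CPM lay above esiCT replicate 2 at 13.9. With OXPT it was -0.74 (SE 0.25, 95% interval -1.23 to -0.25, 1.67-fold lower, unadjusted p = 0.00784, adjusted p = 1.00), with no overlap between the libraries. Few genes were called between the esiRNAs: 0.00809% of those tested (1 gene) were called without OXPT and 0% with it. In edgeR 394 and 380 genes were below an unadjusted p of 0.05, while DESeq2 made 40 and 9 calls. With the replicate block 4 genes were called without OXPT and 0 with it, and HDAC4 was not among these. DESeq2 gave HDAC4 no adjusted p without OXPT (unadjusted p = 6.40e-04).

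For the relatives of the target no difference passed. HDAC5 differed between esiHDAC4 and esiCT by a log2 fold change of 0.10 (95% interval -0.29 to 0.49) without OXPT and -0.08 (-0.46 to 0.31) with it, and HDAC7 by -0.08 (-0.53 to 0.38) and 0.03 (-0.42 to 0.49). HDAC9 was higher by mean with esiHDAC4, at 2.95 ± 0.497 against 1.87 ± 0.330 CPM, and all 3 libraries were above those with esiCT, but the difference did not pass (0.66, SE 0.45, adjusted p = 1.00). With OXPT its values overlapped at 0.510 ± 0.290 and 0.393 ± 0.176 CPM. The responses of HDAC4 to OXPT with the 2 esiRNAs differed by 0.08 (95% interval -0.61 to 0.76, adjusted p = 1.00).

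The third question is how degrader #11 compared with the control and with esiHDAC4. Deviations from the group means in same-numbered libraries had correlations of -0.25 to 0.18 between #11 and either esiRNA. In the other comparisons they were 0.11 to 0.79. The part of library preparation in the differences with #11 was not tested. Without OXPT the HDAC4 transcript did not pass between #11 and esiCT (log2 fold change 0.30, 95% interval -0.17 to 0.76, adjusted p = 0.649). With OXPT it was higher with #11, at 16.5 ± 2.00 against 6.45 ± 0.908 CPM (1.36, SE 0.25, 2.57-fold, adjusted p = 0.0383), with no overlap. This comparison called 0.121% of the genes tested (15 genes), and 0.510% (63 genes) were called without OXPT. The call for HDAC4 was near the threshold. It was lost when the 2 groups were fitted alone (1.31, adjusted p = 0.453), a fit that called 0 genes. DESeq2 kept the call (adjusted p = 1.73e-04). The call was also lost in the strand columns (1.30 in each) and in 14 of 24 fits that each left out 1 library, with values of 1.28 to 1.45. Those libraries were KO esiCT replicate 1, KO esiCT OXPT replicates 1, 2 and 3, KO esiHDAC4 replicates 1 and 3, all 3 of KO #11 and of KO #11 OXPT, WT replicate 1 and WT OXPT replicate 1, with adjusted p of 0.0528 to 0.240.

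Against esiHDAC4, the HDAC4 transcript was higher with #11 in both states. The log2 fold change was 1.11 without OXPT (SE 0.24, 2.16-fold, adjusted p = 0.0343) and 2.10 with it (SE 0.25, 4.28-fold, adjusted p = 7.34e-04), and the libraries did not overlap in either state. These comparisons called 1.17% and 0.0971% of the genes tested (145 and 12 genes), so HDAC4 was 1 of 12 genes in the second. The call without OXPT was lost in 8 of 24 fits without 1 library (KO esiCT OXPT replicate 1, KO esiHDAC4 replicates 1 and 2, KO esiHDAC4 OXPT replicate 2, KO #11 replicates 1, 2 and 3, and KO #11 OXPT replicate 2), at 0.94 to 1.16 with adjusted p of 0.0507 to 0.255. It was also lost in the forward column (1.05, adjusted p = 0.0529) and without a count minimum (1.06, adjusted p = 0.0957). The call with OXPT was lost when its 2 groups were fitted alone (2.10, adjusted p = 0.137), a fit that called 0 genes. HDAC5, HDAC7 and HDAC9 were not called between #11 and either esiRNA: HDAC5 differed by 0.12 to 0.25, HDAC7 by 0.24 to 0.36 and HDAC9 by 0.02 to 0.68.

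Whether #11 altered the response to OXPT was tested by the difference of the log2 fold changes. For HDAC4 it was 1.06 (SE 0.34, 95% interval 0.40 to 1.73, unadjusted p = 0.00530), a smaller fall with #11, but it did not pass over all genes (adjusted p = 0.449 in edgeR and 0.159 in DESeq2). This test called 0% of the genes, with 863 below an unadjusted p of 0.05 and 36 calls by DESeq2. For the difference between esiHDAC4 and esiCT edgeR called 0% (19 genes at an unadjusted p under 0.05, DESeq2 0). HDAC5 differed with #11 by -0.13 (95% interval -0.68 to 0.42), HDAC7 by 0.12 (-0.52 to 0.76) and HDAC9 by -0.36 (-1.84 to 1.12). The comparisons of #11 and of OXPT share the same KO libraries, so that these values are not independent of those above.

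The fourth question is whether the class IIa transcripts differed between KO esiCT and WT, whose esiRNA is unsettled. A KO line is set against a WT line here. Loss of FBXW7, other differences between the lines and the unsettled esiRNA therefore cannot be told apart. No member was called. HDAC4 had log2 fold changes of -0.20 without OXPT (95% interval -0.67 to 0.26, adjusted p = 1.00) and -0.47 with it (-0.95 to 0.01, adjusted p = 0.956), where all 3 KO libraries were below the WT ones. HDAC5 differed by -0.03 (-0.42 to 0.36) and -0.26 (-0.65 to 0.13), HDAC7 by 0.01 (-0.45 to 0.46) and -0.03 (-0.49 to 0.42), and HDAC9 by 0.64 (-0.29 to 1.57) and 0.21 (-0.97 to 1.39). These comparisons called 0.291% of the genes without OXPT (36 genes, 75 with the replicate block) and 0.138% with it (17 genes). The response of HDAC4 to OXPT differed between KO esiCT and WT by -0.27 (95% interval -0.93 to 0.40, adjusted p = 1.00). That test called 0% of genes, with 201 at an unadjusted p under 0.05 and 0 calls by DESeq2.

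The 12 WT libraries with conflicting labels are given as values only, replicates 1, 2 and 3 under each title. HDAC4 was 9.13, 15.4 and 13 CPM in the libraries titled WT siHDAC4 UNT and 6.11, 6.62 and 8.06 in those titled WT siHDAC4 OXPT. Under WT PROTAC11 it was 23.4, 29.9 and 17.4, and under WT PROTAC11 OXPT 16.6, 16.6 and 9.05. In the same order of titles HDAC5 was 64.9, 47.1 and 46.3, then 64.7, 67.5 and 78.8, then 42.6, 38.7 and 68.6, then 68.9, 46.9 and 80.3. Over these 12 libraries HDAC5 thus ran from 38.7 to 80.3 CPM and HDAC7 from 26.9 to 59.6 CPM. HDAC7 was 38.4, 30.0 and 41.2, then 41.5, 44.5 and 46.4, then 45.8, 39.1 and 26.9, then 59.6, 37.0 and 28.1. HDAC9 had counts of 35, 51 and 5, then 17, 6 and 12, then 9, 27 and 16, then 0, 2 and 11, and the count of 0 allows a level of up to 0.319 CPM, for counting error only.

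The partners and regulators of class IIa deacetylases were read from lists of known members, each with the number called and the median log2 fold change. Over all genes tested these medians with OXPT were 0.01 in KO esiCT, 0.02 in KO esiHDAC4, 0.00 in KO #11 and -0.06 in WT, and 11.3%, 12%, 9.51% and 10.7% of genes were called in either direction. Of the MEF2 factors, the DNA-bound partners, 3 of 4 were tested, and with OXPT only MEF2C in KO #11 was called (-1.54, SE 0.48, adjusted p = 0.0445). Their medians were -0.29 in KO esiCT, -0.13 in KO esiHDAC4, -0.98 in KO #11 and -0.32 in WT. For #11 against esiCT the median of these factors was 1.01 without OXPT and 0.14 with it, with no call. By mean, MEF2C was 26.0 CPM in KO #11, 30.7 in KO esiHDAC4, 21.9 in WT and 12.3 in KO esiCT. With OXPT it was 8.94, 12.5, 12.1 and 8.08 in the same order, so the higher untreated level was not particular to #11. MEF2A and MEF2D, the family members most studied with HDAC4, were not called: MEF2A ranged from -0.98 to -0.13 over the 4 OXPT comparisons and MEF2D from -0.07 to 0.58.

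Of the 11 corepressor partners, 10 were tested and 1 was called lower with OXPT in every setting, TBL1X, a subunit of the NCOR1 complex. TBL1X fell by 0.81 in KO esiCT (adjusted p = 0.00460), 0.85 in KO esiHDAC4 (adjusted p = 0.00291), 1.03 in KO #11 (adjusted p = 7.04e-04) and 0.98 in WT (adjusted p = 9.19e-04) on the log2 scale. HDAC3, the catalytic partner, stayed between -0.19 and 0.24, with no call. RUNX2, a factor that class IIa deacetylases bind, was higher with #11 than with esiCT (2.04, SE 0.43, adjusted p = 0.0390) and than with esiHDAC4 (1.78, SE 0.42, adjusted p = 0.0433) without OXPT, and lower in KO than in WT without OXPT (-2.43, SE 0.43, adjusted p = 0.00893). The list medians with OXPT were -0.13, -0.13, -0.28 and -0.24 in KO esiCT, KO esiHDAC4, KO #11 and WT.

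Kinases that phosphorylate class IIa deacetylases were called lower in every setting and also higher in KO #11 and WT. Of 17 listed, 15 were tested, and OXPT called 0 higher and 3 lower in KO esiCT, 0 and 4 in KO esiHDAC4, 2 and 2 in KO #11 and 2 and 4 in WT, with list medians of 0.01, 0.00, -0.41 and 0.02. Of all genes tested, 5.1%, 5.5%, 3.6% and 5.6% were called lower, and of those spanning over 200 kb 25.3%, 28.6%, 21.1% and 26.9%. The part of gene length in the falls of the kinases and of TBL1X was not tested. CAMK1D, a calcium/calmodulin-dependent kinase, fell in every setting, by 2.30 in KO esiCT, 2.71 in KO esiHDAC4, 1.99 in KO #11 and 2.35 in WT on the log2 scale, with adjusted p between 7.08e-06 and 1.01e-04. CAMK2D also fell in all 4, by 1.09 to 1.45. CAMK4 fell by 1.56 in KO esiCT, by 1.70 in KO esiHDAC4 and by 1.31 in WT, and the salt-inducible kinase SIK2 fell by 0.76 in KO esiHDAC4 and by 0.75 in WT. Protein kinase D2 (PRKD2) rose in KO #11 (0.77, adjusted p = 0.00404) and WT (0.65, adjusted p = 0.0125), and CAMK2G rose in KO #11 (0.85).

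Of the 14-3-3 proteins and the exporter XPO1, 8 of 8 were tested and 1 was called with OXPT in each setting. SFN, the epithelial 14-3-3 protein and a known p53 target, rose by 2.32 in KO esiCT (SE 0.42), 2.47 in KO esiHDAC4 (SE 0.42), 2.21 in KO #11 (SE 0.42) and 1.72 in WT (SE 0.41), while the list medians were -0.16, -0.33, -0.18 and -0.27. Of 5 phosphatase genes 5 were tested, and the catalytic subunit PPP2CA fell by 0.97 in KO #11 (adjusted p = 0.0390) and by 0.94 in WT (adjusted p = 0.0430), with list medians of 0.14, 0.14, 0.25 and -0.14. Of 8 genes of ligases that act on class IIa deacetylases or are recruited by the degrader, 8 were tested, with medians of 0.47, 0.31, 0.14 and 0.16. FBXW7 rose with OXPT in KO esiCT (1.33, SE 0.31, adjusted p = 0.00747) and KO #11 (1.09, SE 0.31, adjusted p = 0.0281), and ELOB, which joins VHL to its ligase, rose in KO esiCT (1.12, adjusted p = 0.0432). VHL, the receptor that #11 binds, was higher with #11 than with esiHDAC4 without OXPT (0.87, SE 0.18, adjusted p = 0.0313).

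Of 8 genes known as MEF2 or class IIa targets, 8 were tested, and their medians with OXPT were 0.87 in KO esiCT, 0.55 in KO esiHDAC4, -1.04 in KO #11 and 0.26 in WT. NR4A1, an immediate early nuclear receptor gene, rose in KO esiHDAC4 (1.29, adjusted p = 0.0220) and WT (1.52, adjusted p = 0.00867). JUN, an AP-1 gene, rose with OXPT in KO esiHDAC4 (1.91, adjusted p = 0.0323) and fell by 1.94 in KO #11 (adjusted p = 0.0331). Without OXPT, JUN was higher with #11 than with esiCT (2.75, SE 0.58, adjusted p = 0.0415) and than with esiHDAC4 (3.26, SE 0.60, adjusted p = 0.0285), and NR4A3 was higher with #11 than with esiCT (2.03, SE 0.41, adjusted p = 0.0390). The median of the target list for #11 against esiCT was 1.08 without OXPT and -0.27 with it. Thus the #11 libraries without OXPT had a higher level of JUN and, by this median, of the target list than KO esiCT. For KO esiCT against WT without OXPT the list median was -0.97, with no call. The part of the untreated level in the OXPT medians was not tested. The OXPT and #11 comparisons share the #11 libraries without OXPT.

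Among the other classical deacetylases 6 of 7 were tested, with list medians under OXPT of -0.19, -0.10, 0.15 and 0.01. HDAC11, the class IV enzyme, rose in KO esiHDAC4 (0.83, SE 0.25, adjusted p = 0.0331) and KO #11 (0.86, SE 0.25, adjusted p = 0.0331). HDAC1 stayed between -0.34 and 0.09 and HDAC2 between -0.48 and -0.20 with OXPT, and neither was called in any comparison. Markers also moved with OXPT: of 8 epithelial markers 6 were tested, KRT8 rose in all 4 settings (1.01 to 1.29), the medians were 0.66, 0.89, 0.74 and 0.70, and the summed level was 5097 to 10222 CPM in untreated and 8431 to 21443 CPM in treated libraries. The 8 markers of other cell types summed to 33.5 to 69.7 CPM untreated and 48.0 to 89.1 with OXPT, mostly COL1A1 and DES, and DES rose in KO #11 (1.26) and WT (1.17). The part of either marker list in the results for the deacetylases was not tested.

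Across the 24 libraries the tested members were little correlated: Pearson's r of log2 CPM was -0.26 between HDAC4 and HDAC5, 0.08 between HDAC4 and HDAC7 and 0.02 between HDAC5 and HDAC7. The genes most like HDAC4 were APP (r = 0.943), EPHB2 (0.902) and ACAD10 (0.897), those most like HDAC5 were ZBTB4 (0.868), PDX1 (0.842) and ACTN1 (0.838), and those most like HDAC7 were AP1G2 (0.838), IMPDH2 (0.797) and SMG5 (0.766). These are the highest of all genes tested and are given as a description over libraries that share treatment, depth and preparation.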

How the data were processed

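PolyA RNA of HCT-116 cells was sequenced by the authors, and the deposited files hold raw counts per Ensembl gene for each library in 3 columns (unstranded, forward and reverse). The submitters' processing notes name Trimmomatic 0.39, STAR 2.7.11a and hg38; the file layout is that of STAR gene counts, in which reads that match several genes are not counted. The forward and reverse totals were nearly equal in each library, so the unstranded column was used, as raw counts. Depth per library is given with the results. The limit for a count of 0 covers counting error only. The intervals of log2 fold changes rest on the SE of the fit, which reflects the spread between these libraries.

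Identifiers were matched to GENCODE 44 without version (62686 of 62757). The 12356 genes with a mean of 64 counts or more in any group were fitted with edgeR 4.0.16 (R 4.3.3): TMM normalization, 1 coefficient per group over the 24 libraries, quasi-likelihood F test, Benjamini-Hochberg adjustment over all genes tested, and calls at adjusted p under 0.05 and over 1.5-fold. HDAC9, below the minimum, was taken from the fit without it. CPM are TMM-normalised counts per library total; 95% intervals take the estimate as normal with its SE. The fits were tested on simulated data. The replicate numbers in the titles were checked as pairs by the correlation of same-numbered deviations from the group means. All 3 were over 0.1 (0.11 to 0.79) in the OXPT, esiHDAC4 and KO against WT comparisons, which were also fitted with a replicate block, and not in those of #11. Alternatives were DESeq2 1.42.0, RLE size factors, other count minimums, the strand columns, a fit of the compared groups alone and leaving out each library.

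The members, lists and column were chosen with earlier results of these data known. Named genes are the 4 members, FBXW7, HDAC1, HDAC2, HDAC3, MEF2A and MEF2D (1 further gene is not reported here), up to 4 called genes per list and comparison by smallest adjusted p, and the 3 genes most correlated with each tested member. The 12 libraries with conflicting labels entered no fit.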

Additional observations from a re-analysis of the deposited data

Results flagged for a closer look

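In 3 of the 12 WT libraries outside the groups a member was above every library in the groups. HDAC4 was 29.9 CPM in the library titled WT PROTAC11 2, against at most 26.7 CPM in the 24 libraries. HDAC5 was 80.3 CPM in WT PROTAC11 OXPT 3 and 78.8 CPM in WT siHDAC4 OXPT 3, against at most 78.0 CPM.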

How the results depend on the processing

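Of 49 tested results for the members, among which HDAC9 entered only with its OXPT comparisons, 29 kept their direction and their side of the threshold under every alternative run. Of 1549 values, 1448 did so, 65 lost a call, 36 changed sign and 0 gained a call; the cause was not tested.

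Fits of the compared groups alone, with fewer libraries behind the spread, lost HDAC4 for OXPT in WT (-1.37, adjusted p = 0.0874), for #11 against esiCT with OXPT (1.31, adjusted p = 0.453) and for #11 against esiHDAC4 with OXPT (2.10, adjusted p = 0.137), and HDAC5 in WT (0.57, adjusted p = 0.391). HDAC4 for #11 against esiCT with OXPT was also lost in the reverse (1.30, adjusted p = 0.0684) and forward columns (1.30, adjusted p = 0.0808), and for #11 against esiHDAC4 without OXPT in the forward column (1.05, adjusted p = 0.0529) and without a count minimum (1.06, adjusted p = 0.0957). HDAC5 in WT was lost without a minimum (0.59, adjusted p = 0.344) and with the minimum in every group (0.60, adjusted p = 0.0607). At a minimum of 10 HDAC9 was lost in KO esiCT in the forward column (-1.97, adjusted p = 0.0523) and in WT (-1.72, adjusted p = 0.0509; also in the reverse column -1.22, adjusted p = 0.277, and in its groups alone -1.74, adjusted p = 0.309).

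Sign changes touched uncalled values of HDAC7 and HDAC5 and, when single libraries were left out, the esiHDAC4 difference of responses of HDAC4. HDAC7 in KO against WT was -0.01 without OXPT by RLE and DESeq2, and with OXPT 0.00 by RLE and DESeq2, 0.05 in the reverse column and 0.02 in the groups alone; its difference of responses between KO esiCT and WT was 0.01 by RLE and DESeq2 and 0.02 in the groups alone.

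Leaving out each library gave HDAC4 1.28 to 1.45 (#11 against esiCT, OXPT), 0.94 to 1.39 (#11 against esiHDAC4, untreated) and -0.16 to 0.35 (difference of responses, esiHDAC4). HDAC5 ranged from 0.48 to 0.75 (OXPT in WT), 0.00 to 0.30 and -0.19 to 0.06 (esiHDAC4, untreated and OXPT) and -0.23 to 0.09 (KO against WT, untreated). HDAC7 with OXPT ranged from -0.16 to 0.28 in KO esiCT, -0.01 to 0.43 in KO #11 and -0.01 to 0.25 in WT, -0.17 to 0.27 for esiHDAC4 with OXPT, -0.09 to 0.14 and -0.27 to 0.17 for KO against WT, and -0.28 to 0.15, -0.11 to 0.35 and -0.11 to 0.36 for the differences of responses (KO against WT, esiHDAC4, #11). At a minimum of 10, HDAC9 ranged from -2.63 to -1.92 in KO esiCT and from -2.53 to -1.15 in WT. In WT 18 of 24 of these fits were not called, and with all libraries that minimum gave no call either (adjusted p = 0.0509).

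The replicate block changed no call of a member. It moved the genes called for esiHDAC4 untreated from 1 to 4 and for KO against WT untreated from 36 to 75. The #11 libraries share only a number, and there the paired fit gave 397 for 63 and 132 for 15 (against esiCT, untreated and OXPT), 584 for 145 and 257 for 12 (against esiHDAC4) and 15 for 0 (difference of responses). DESeq2 called 409, 126, 458, 196 and 36 in these 5 and 117 and 30 in KO against WT (36 and 17). Without a minimum the calls were 480, 367, 741, 535, 65, 322 and 91. OXPT in the groups alone called 553 (KO esiCT, 1398), 2635 (KO #11, 1175) and 84 (WT, 1322). With OXPT, #11 against esiCT and #11 against esiHDAC4 each called 0 genes in the groups alone (15 and 12). HDAC9, with 2 to 67 counts, is limited by depth.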
